A study of Homo sapiens with 6 samples.

Results

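Genes of cholesterol and fatty acid synthesis were followed in HT-29, a line of human colorectal cancer cells, after depletion of the long noncoding RNAs HOXA-AS3 or HOXB-AS3. The genes were listed by symbol and found through the Entrez gene identifiers of the deposited rows. The rule has no threshold on measured values, but the list was drawn up with earlier results of these data known. They were 29 of the 27434 rows in each table, made up of 18 enzymes of the sterol pathway, 7 enzymes of fatty acid synthesis and desaturation, and 4 regulators and carriers (SREBF1, SREBF2, INSIG1 and STARD4). The study asked which genes respond when each lncRNA is knocked down (KD) with small interfering RNA (siRNA). Cells of all conditions received an siRNA pool and were collected after 48 hours. The pools were non-targeting (siNT), against HOXA-AS3 (siHOXA-AS3) or against HOXB-AS3 (siHOXB-AS3), with 2 libraries each. The labels give a dose of 10 nM, which differs from the dose in the study's methods. All libraries came from 1 cancer cell line, and the labels do not say whether the libraries of a condition came from separate cultures, so p-values measure only the spread between these libraries, which may be technical.

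The expected read counts, which are RSEM's estimates of the reads of a gene, summed to between 15998518 and 26263938 per library. In TPM, RSEM's transcript abundance scaled by length and library size, which allows genes to be compared, HOXB-AS3 was listed at 39.6 and 41.3 in the siNT libraries and at 8.37 and 11.2 after its own KD (log2 fold change -1.96, edgeR adjusted p = 0.0678). HOXA-AS3 was at 0.56 and 0.42 in siNT and at 0.19 and 0.28 in the siHOXA-AS3 libraries (log2 fold change -1.09, edgeR adjusted p = 0.711), the last 2 with 12 expected counts each, so its knockdown was read at the edge of detection. The epithelial label of HT-29 was borne out by 7 of 8 colon epithelial markers at 1 TPM or more in all 6 libraries, while CDX2 stayed between 0.14 and 0.50 TPM. None of the fibroblast and endothelial markers reached 1 TPM in any library.

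Cholesterol is built from acetyl-CoA through mevalonate, farnesyl diphosphate, squalene and lanosterol, and the fatty acid pathway starts from the same acetyl-CoA, which ATP citrate lyase supplies in the cytosol. Both pathways are driven by the sterol regulatory element binding proteins, the products of SREBF2, which acts mainly on sterol genes, and SREBF1, which acts mainly on fatty acid genes. INSIG1 encodes a protein of the endoplasmic reticulum that holds back the processing of these factors when sterols are plentiful, and INSIG1 is itself one of their target genes.

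INSIG1 and SC5D were lower in both siHOXB-AS3 libraries, and FDPS and HSD17B7 were higher. These 4 genes were picked by their values, and they are not the only ones named below. CYP51A1 was also higher in both siHOXB-AS3 libraries. It had a promoter entry, but none of the motifs counted below was found in it. Stretches of their promoters, cut around the marked motifs, are shown and are not the whole entries. They were taken from RefSeq on GRCh38.p14, on the strand of the gene, and capitals mark an E-box (CACGTG) or a CCAAT box, which is written ATTGG where it lies on the opposite strand.
INSIG1, chr7:155297693-155297843: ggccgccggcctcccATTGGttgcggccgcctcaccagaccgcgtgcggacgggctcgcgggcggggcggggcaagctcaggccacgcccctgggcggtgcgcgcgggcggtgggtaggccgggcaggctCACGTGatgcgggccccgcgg
SC5D, chr11:121292625-121292734: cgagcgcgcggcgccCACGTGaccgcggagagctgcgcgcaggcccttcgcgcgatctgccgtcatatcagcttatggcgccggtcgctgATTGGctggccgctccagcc
FDPS, chr1:155308675-155308834: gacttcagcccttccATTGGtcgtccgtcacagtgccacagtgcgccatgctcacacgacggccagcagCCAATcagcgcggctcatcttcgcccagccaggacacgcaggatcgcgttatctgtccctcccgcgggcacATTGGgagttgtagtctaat
HSD17B7, chr1:162790635-162790669: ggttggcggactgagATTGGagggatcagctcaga

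The E-box began 55 bases before the start site in INSIG1. In SC5D it began 131 bases before the first of the annotated starts and 212 bases before the other. Of the 29 genes, 25 had a promoter entry (250 bases before to 50 after the start), and ACAT2, FDFT1, SQLE and FASN had none. On either strand, CACGTG was found in 3 of the 25 (LSS, SC5D and INSIG1), or 12%, against 8.78% of all 27305 genes with a promoter entry. CCAAT was found in 20 of the 25, or 80%, against 39.7% of all genes. The 27305 genes were not limited to the 13034 genes tested, and the 25 were chosen by pathway. The shares are thus not like for like, and enrichment was not tested. The core of the sterol regulatory element, TCACNCCAC, was found in SREBF2 alone, or 4% against 1.39%, and its shorter form TCACNCC in 7 of the 25, or 28% against 18.2%. TCACNCC lies inside TCACNCCAC and its last letters can overlap CCAAT, and each motif was counted on its own. A match is a description of letters and not of binding, and a relation of motifs to the direction of change was not tested.

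The levels of the 29 genes spanned more than 3 orders of magnitude. SCD, the stearoyl-CoA desaturase, was the highest in every library, at 336 and 350 TPM in siNT, 319 and 270 TPM in siHOXA-AS3, and 311 and 304 TPM in siHOXB-AS3. It made up 28.98% ± 0.864 (SD, n = 2) of the summed TPM of the 29 genes in siNT. Every siHOXB-AS3 value of SCD lay below both siNT values in TPM, but the groups overlapped in counts scaled to the library size (CPM), so no direction was read for it. Squalene synthase, FDFT1, followed at a mean of 141.5 TPM ± 1.39 (SD, n = 2) in siNT, and farnesyl diphosphate synthase, FDPS, at 93.5 TPM ± 5.84 (SD, n = 2). Next came EBP at 78.1 TPM ± 6.43, DHCR7 at 71.3 TPM ± 2.89, CYP51A1 at 60.1 TPM ± 10.9 and SQLE at 58.2 TPM ± 6.48 (SD, n = 2). In siNT the EBP values lay just above the DHCR7 values (73.5 against 73.4 TPM at the nearest), and those of CYP51A1 and SQLE overlapped. The median over the 29 genes of the mean TPM was 22.9, against 10.2 over the 13034 genes tested.

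At the low end stood MVD, LSS and MVK, with siNT means of 4.41, 3.55 and 3.45 TPM, and the fatty acid desaturases FADS2 and FADS1, with 0.555 and 0.225 TPM. FADS1 had 8 to 25 expected counts per library and FADS2 had 5 to 29, so these 2 fatty acid genes were barely detected. FASN, the fatty acid synthase itself, was listed at 6.22 and 6.73 TPM in siNT. The fatty acid genes thus held both ends of the range. The summed TPM was 692 and 682 in siNT for the 18 sterol enzymes and 422 and 428 for the 7 fatty acid enzymes.

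**Figure D1:**
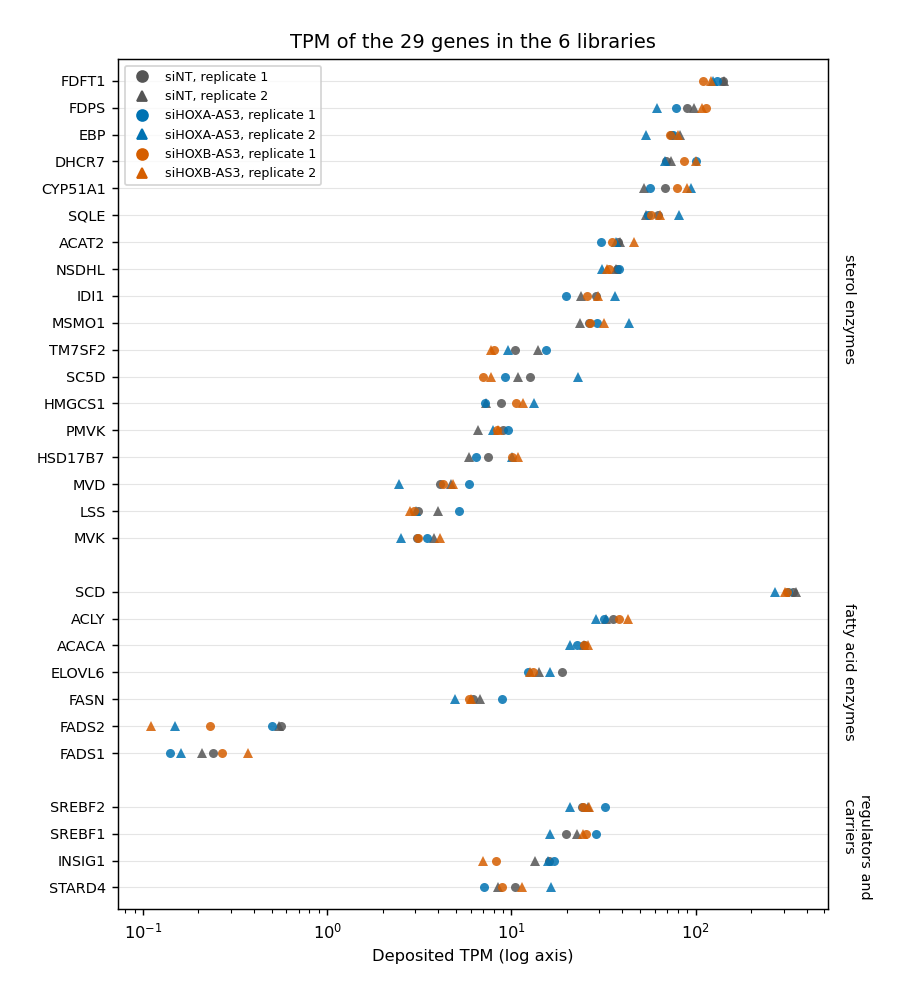
Deposited TPM of each of the 29 genes (rows, grouped by role and sorted by their siNT mean) in each of the 6 libraries, on a log axis. Colours give the condition and circles and triangles give replicates 1 and 2. SCD lies between 270 and 350 TPM, and FADS1 and FADS2 lie below 1 TPM.

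How far replicates of a condition lay apart was not the same in the 3 conditions. Over the 29 genes, the SD of the log2 difference in CPM between replicate 2 and replicate 1 was 0.71 in siHOXA-AS3, 0.23 in siNT and 0.23 in siHOXB-AS3. In the siHOXA-AS3 pair, 4 of the 29 genes were at least 2-fold apart, where 1643 of 12622 genes tested were. In the siNT and siHOXB-AS3 pairs none of the 29 was, where 267 and 236 of the 12622 were. Over the 12622 genes the SD was 0.70 in siHOXA-AS3, 0.36 in siNT and 0.33 in siHOXB-AS3. The wide siHOXA-AS3 spread was thus not particular to the 29 genes. Sterol C5-desaturase, SC5D, was one of the 4, at 9.28 TPM in siHOXA-AS3 replicate 1 and 23.0 TPM in replicate 2.

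The difference inside the siHOXA-AS3 pair followed the GC content of the genes. Across the 29 genes, which share their libraries and are not independent replicates, Pearson r was -0.88 and Spearman rho -0.91 in siHOXA-AS3, with r at 0.71 in siNT and -0.20 in siHOXB-AS3. Of the 14 genes with a GC content under 50%, 10 were higher in siHOXA-AS3 replicate 2 than in replicate 1. Of the 15 genes at 50% or above, 14 were lower. AT-rich sterol genes such as SC5D (38.1% GC) and MSMO1 (38.7%) and GC-rich genes such as FASN (65.8%) and SREBF1 (62.9%) thus moved in opposite directions between libraries of the same label. The same relation held over 12622 genes tested that had a GC value (r = -0.75 in siHOXA-AS3).

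**Figure D2:**
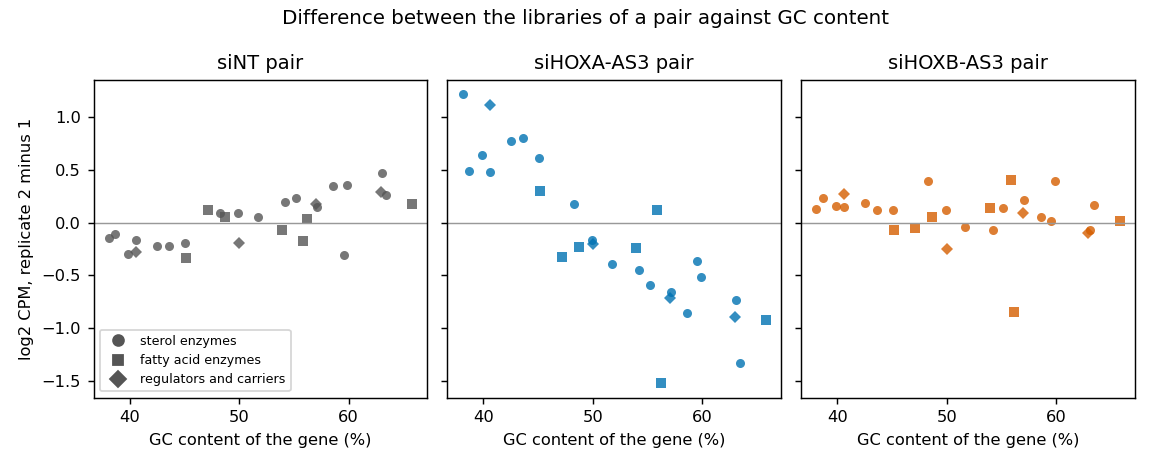
Difference in log2 CPM between replicate 2 and replicate 1 of each condition (vertical axis) against the GC content of the gene in percent (horizontal axis), for the 29 genes, with shapes for their roles. The siHOXA-AS3 points run from 1.22 at the AT-rich end (SC5D) down to -0.92 at the GC-rich end (FASN), and the siHOXB-AS3 points lie between -0.25 and 0.40 apart from FADS2 at -0.84.

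After HOXB-AS3 KD, the gene that stood furthest from siNT among the well measured ones was INSIG1. It was listed at 16.1 and 13.5 TPM in siNT, 17.03 and 15.9 TPM in siHOXA-AS3, and 8.26 and 6.99 TPM in siHOXB-AS3. Both siHOXB-AS3 libraries lay below the other 4, with no overlap. In edgeR's quasi-likelihood test on all 6 libraries the log2 fold change against siNT was -0.86 (SE 0.20, unadjusted p = 0.00384), which did not pass after Benjamini-Hochberg adjustment over 13034 genes (edgeR adjusted p = 0.161). DESeq2 gave -0.86 with an adjusted p of 0.0342, and edgeR fitted on the siNT and siHOXB-AS3 libraries alone gave -0.87 with an adjusted p of 0.00014. Bulk RNA cannot tell fewer cells of a type apart from less RNA per cell, here and in the results below.

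The enzyme SC5D, which introduces a double bond late in the sterol pathway, was listed at 12.6 and 10.9 TPM in siNT and at 6.99 and 7.73 TPM in siHOXB-AS3. Both siHOXB-AS3 values were below both siNT values. The log2 fold change was -0.58 (SE 0.37, edgeR adjusted p = 0.598) on all 6 libraries and -0.59 (edgeR adjusted p = 0.00115) on the libraries of the 2 groups alone.

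In the opposite direction lay several other enzymes of the sterol pathway. The lanosterol demethylase CYP51A1 was at 67.8 and 52.4 TPM in siNT and at 79.6 and 90.2 TPM in siHOXB-AS3, a log2 fold change of 0.59 (SE 0.24, edgeR adjusted p = 0.393). HSD17B7, which reduces a ketone during demethylation of sterols, was at 7.43 and 5.87 TPM in siNT and at 10.0 and 10.8 TPM in siHOXB-AS3, a log2 fold change of 0.72 (SE 0.27, edgeR adjusted p = 0.352). For both enzymes the 2 groups did not overlap. FDPS, at the branch point of sterols and isoprenoids, was at 89.4 and 97.7 TPM in siNT and at 113 and 109 TPM in siHOXB-AS3, again without overlap (log2 fold change 0.34, SE 0.20, edgeR adjusted p = 0.574).

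HMGCS1, which makes the precursor of mevalonate, and DHCR7, which catalyses a last step of the pathway, are added here after their values were seen. HMGCS1 was at 8.81 and 7.26 TPM in siNT and at 10.6 and 11.6 TPM in siHOXB-AS3. DHCR7 was at 69.3 and 73.4 TPM in siNT and at 86.3 and 100.7 TPM in siHOXB-AS3. The siHOXB-AS3 values were above the siNT values for each, and the edgeR adjusted p on all 6 libraries was 0.507 for HMGCS1 and 0.497 for DHCR7.

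ATP citrate lyase, ACLY, which feeds both pathways, was at 35.4 and 32.4 TPM in siNT and 38.4 and 42.7 TPM in siHOXB-AS3 (log2 fold change 0.35, SE 0.17, edgeR adjusted p = 0.485). Its siHOXB-AS3 values lay above both siNT values, as did those of ACACA and FADS1 in CPM. FADS2, which inserts a double bond into polyunsaturated fatty acids, was at 0.56 and 0.55 TPM in siNT and at 0.23 and 0.11 TPM in siHOXB-AS3, the latter with 12 and 5 expected counts (log2 fold change -1.56, SE 0.64, edgeR adjusted p = 0.395). Its siHOXA-AS3 libraries, at 0.50 and 0.15 TPM, lay near siNT and near siHOXB-AS3, respectively.

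The transcription factor genes gave smaller differences. SREBF1 was at 19.8 and 22.8 TPM in siNT and 25.4 and 24.3 TPM in siHOXB-AS3 (log2 fold change 0.27, SE 0.30, edgeR adjusted p = 0.788). SREBF2 was at 24.2 and 26.2 TPM in siNT and 24.4 and 26.3 TPM in siHOXB-AS3 (log2 fold change 0.10, SE 0.25, edgeR adjusted p = 0.921). The SREBF2 libraries of the 2 groups overlapped, whereas those of SREBF1 did not.

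**Figure D3:**
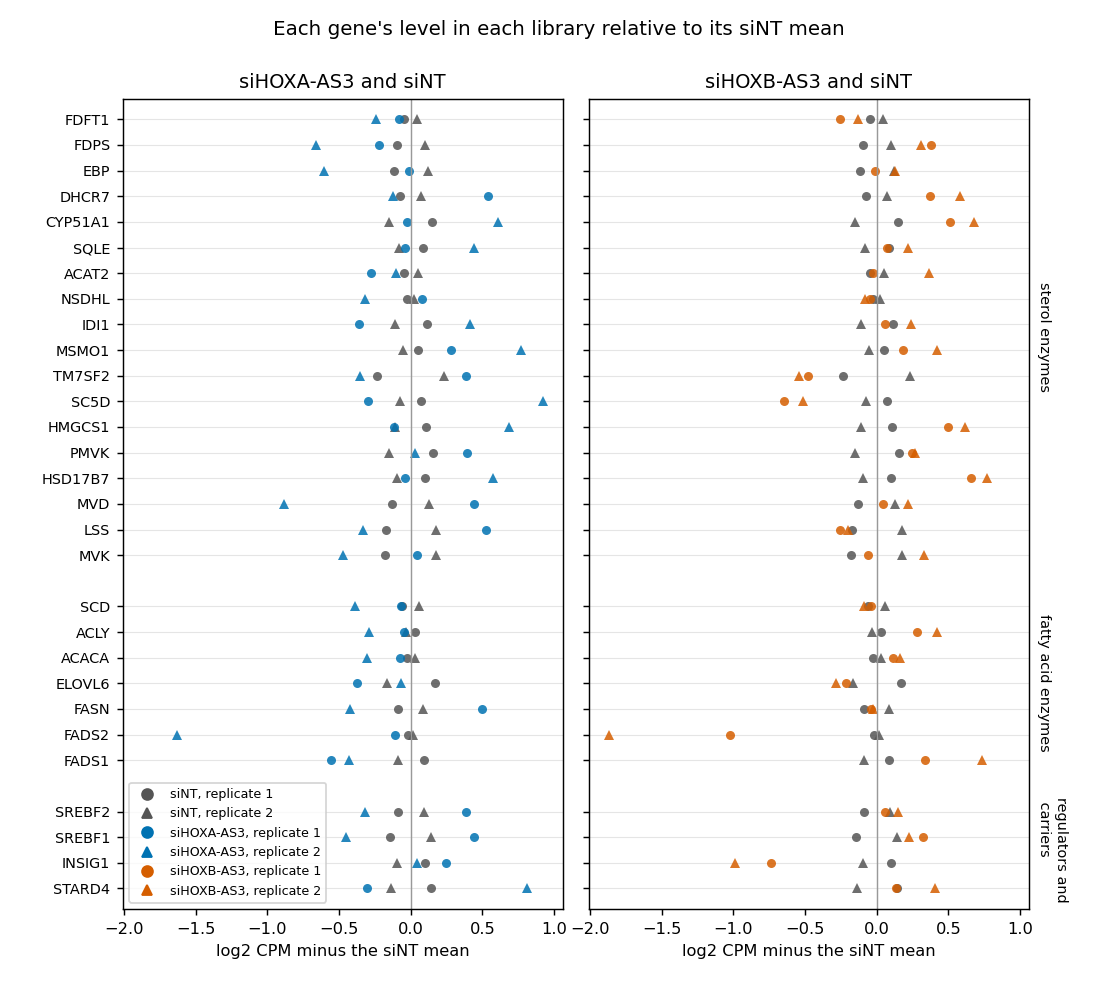
Log2 CPM of each of the 29 genes in each library minus the gene's mean over the siNT libraries, for siHOXA-AS3 (left) and siHOXB-AS3 (right), with the siNT libraries in grey. In siHOXB-AS3 the libraries of a pair lie close together, INSIG1 at -0.73 and -0.99, whereas in siHOXA-AS3 SC5D lies at -0.30 and 0.92.

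Counted over all 29 genes, 0 passed an edgeR adjusted p of 0.05 after HOXB-AS3 KD in the fit on all 6 libraries, where 0.0614% of the genes tested did. At an unadjusted p under 0.05, 2 genes were higher (CYP51A1 and HSD17B7, 4.42% of all genes tested) and 2 were lower (INSIG1 and FADS2, 7.75%). DESeq2 called INSIG1 alone, where it called 2.66% of all genes, and it gave FADS1 and FADS2 no adjusted p. In CPM, both siHOXB-AS3 libraries were above both siNT libraries for 11 of the 29 genes and below them for 8, where the shares of all genes tested were 30.9% and 30.9%. PMVK, one of the 11, overlapped in TPM. The share of separated genes, 19 of 29, was thus near the background.

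The fit without the siHOXA-AS3 libraries called 10 of the 29 genes. CYP51A1, HSD17B7, HMGCS1, DHCR7, FDPS and ACLY rose in that fit, 6 genes where 11.2% of all genes tested rose, and INSIG1, SC5D, TM7SF2 and FADS2 fell, 4 genes where 12.1% fell. Leaving out either siHOXA-AS3 library alone was no separate check, because the spread then again came from the siNT and siHOXB-AS3 libraries. For INSIG1 the log2 fold change was -0.86 in each of these fits. With the trend of each library on GC content removed, 7 genes rose (7.14% of all genes) and 2 fell (6.6%). The 7 were CYP51A1, HSD17B7, HMGCS1, DHCR7, FDPS, ACLY and SREBF1, the 2 were INSIG1 and SC5D, and 8 of the 9 calls were shared with the fit on the 2 groups. Under the GC correction the log2 fold change was -0.81 for INSIG1 (edgeR adjusted p = 0.00663), -0.62 for SC5D (edgeR adjusted p = 0.0186) and 0.55 for CYP51A1 (edgeR adjusted p = 0.00735). The number of calls thus depended on the libraries in the fit and on the GC correction.

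Of the 18 sterol enzymes, 13 had a positive and 5 a negative log2 fold change after HOXB-AS3 KD, with a median of 0.15 against -0.01 over all genes tested. Of these 18, 7 were separated upwards in CPM and 5 downwards, the latter being FDFT1, LSS, TM7SF2, NSDHL and SC5D. With 30.9% of all genes tested separated in each direction, these counts were near the background. Among the 7 fatty acid enzymes, 3 were positive and 4 negative, with a median of -0.03.

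Markers of cell type were read in the same libraries. Of 8 colon epithelial markers, 5 lay below siNT (30.9% of all genes tested) and 2 above it (30.9%) in both siHOXB-AS3 libraries, with a summed level of 4511 and 4837 TPM against 4861 and 5011 TPM in siNT. SERPINA1, the one hepatocyte marker above 1 TPM (14.1 to 58.2 TPM), was lower than siNT in both siHOXB-AS3 libraries and higher in both siHOXA-AS3 libraries, and ALB was at 0. The leukocyte marker CD14 (0.59 to 1.7 TPM) and the adipocyte marker PLIN1 (0.18 to 1.09 TPM) were also below siNT in both siHOXB-AS3 libraries. CIDEC, the other adipocyte marker tested (1.74 to 4.24 TPM), overlapped with siNT. In siHOXA-AS3, CDH1 lay above and CDX2 below siNT in both libraries. Of the colon epithelial markers, 1 passed in edgeR on all 6 libraries, CEACAM5, which fell after HOXB-AS3 KD. After that KD, 0.0614% of all genes tested passed. The part of these marker differences in the results above was not tested.

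After HOXA-AS3 KD, 0 of the 29 genes passed in edgeR's fit on all 6 libraries, where 0% of all genes tested did, and DESeq2 called none of them either, where it called 0.391%. With the GC trend removed none passed, where 3.88% of all genes did. At an unadjusted p under 0.05 in edgeR, 1 gene was higher, MSMO1 (2.75% of all genes tested), and none lower (3.41%). MSMO1, which oxidises methyl groups of sterols, was at 26.3 and 23.5 TPM in siNT and at 29.3 and 43.7 TPM in siHOXA-AS3, with both above siNT (log2 fold change 0.54, SE 0.22, edgeR adjusted p = 0.787).

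In CPM, 1 gene had both siHOXA-AS3 libraries above both siNT libraries, MSMO1 (12.5% of all genes tested), and 8 had both below (16.1%). The 8 were ACAT2, FDPS, FDFT1, SCD, ACACA, ACLY, FADS1 and FADS2, that is 5 of the 7 fatty acid enzymes and 3 of the 18 sterol enzymes. FDPS was at 78.2 and 61.7 TPM in siHOXA-AS3 (log2 fold change -0.43, SE 0.20, edgeR adjusted p = 0.862). ACLY was at 31.9 and 28.7 TPM (log2 fold change -0.16, SE 0.17, edgeR adjusted p = 0.99). Both genes lay below siNT in each library, and none of the 8 passed the test.

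The siHOXA-AS3 result depended on which library was kept. Without siHOXA-AS3 replicate 1, 7 of the 29 genes were called higher (15% of all genes tested) and 7 lower (15.3%). The 7 higher genes were CYP51A1, HMGCS1, IDI1, MSMO1, SC5D, SQLE and STARD4, with a GC content between 38.1 and 43.6%. Without replicate 2, 4 were called higher (7.91%), namely DHCR7, FASN, SREBF1 and SREBF2, and none lower (9.95%). FASN and SREBF1 were called in both settings and in opposite directions. SREBF1 illustrates this, at 28.7 TPM in siHOXA-AS3 replicate 1 and 16.2 TPM in replicate 2, above and below both siNT libraries, with a log2 fold change of 0.06 (SE 0.30, edgeR adjusted p = 0.999) over both.

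MVD and IDI1, also picked after their values were seen, show the same split. MVD, the decarboxylase of the mevalonate route (63.5% GC), was at 4.11 and 4.71 TPM in siNT and at 5.87 and 2.45 TPM in siHOXA-AS3. IDI1, the isopentenyl diphosphate isomerase (42.5% GC), was at 28.95 and 23.7 TPM in siNT and at 19.8 and 36.3 TPM in siHOXA-AS3. In each gene the siHOXA-AS3 libraries lay on either side of both siNT libraries.

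Set side by side, the 2 knockdowns shared their siNT libraries, so their values were compared with each other directly. Against siHOXA-AS3, 0 of the 29 genes passed in edgeR (1.57% of all genes tested). At an unadjusted p under 0.05, 3 were higher in siHOXB-AS3 (FDPS, ACLY and FADS1, 7.9%) and 2 lower (INSIG1 and SC5D, 10.5%). For INSIG1 the log2 fold change was -1.01 (SE 0.20, edgeR adjusted p = 0.0672). DESeq2 called FDPS, INSIG1 and SC5D (3 genes, against 6.08% of all genes), and edgeR with the GC trend removed called 5 higher (14%) and 2 lower (11.9%). The 5 were CYP51A1, EBP, FDPS, ACLY and SREBF1, and the 2 were INSIG1 and SC5D.

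INSIG1, in siHOXA-AS3, was close to its siNT level (log2 fold change 0.15, SE 0.20, edgeR adjusted p = 0.997). SC5D was one of the 4 genes with siHOXA-AS3 libraries at least 2-fold apart, and its log2 fold change between the knockdowns, -1.01 (SE 0.37, edgeR adjusted p = 0.214), ran from -1.50 to -0.29 over the alternative settings. For FADS1, another polyunsaturated desaturase, TPM was 0.24 and 0.21 in siNT, 0.14 and 0.16 in siHOXA-AS3, and 0.27 and 0.37 in siHOXB-AS3. These values lay on opposite sides of siNT in the 2 knockdowns, at 8 to 25 expected counts per library.

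The sterol and the fatty acid enzymes were contrasted by their mean log2 CPM relative to siNT in each library. For the 18 sterol enzymes the mean was 0.07 and 0.02 after HOXA-AS3 KD and 0.07 and 0.20 after HOXB-AS3 KD. For the 7 fatty acid enzymes it was -0.10 and -0.51 in siHOXA-AS3 and -0.09 and -0.14 in siHOXB-AS3. Sterol minus fatty acid was 0.17 and 0.53 in siHOXA-AS3 and 0.15 and 0.34 in siHOXB-AS3. All 4 values were taken against the same siNT libraries, so their shared sign is not independent evidence. The siNT values, -0.03 and 0.03, mirror each other because each gene was centred on its siNT mean.

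The mean contrast was 0.35 ± 0.25 (SD, n = 2) in siHOXA-AS3 and 0.25 ± 0.13 (SD, n = 2) in siHOXB-AS3, against a pooled SD between replicates of 0.17. No test was made of this score over chosen genes. The 2 desaturases with few counts changed it much, and in siHOXB-AS3 they did so in opposite directions. Without FADS1 and FADS2, the contrast was 0.08 and 0.32 after HOXA-AS3 KD and 0.05 and 0.17 after HOXB-AS3 KD. Leaving out FADS2 alone took the siHOXB-AS3 contrast to 0.024, the lowest value when each gene was left out in turn. Leaving out FADS1 alone took it to 0.36, the highest.

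**Figure D4:**
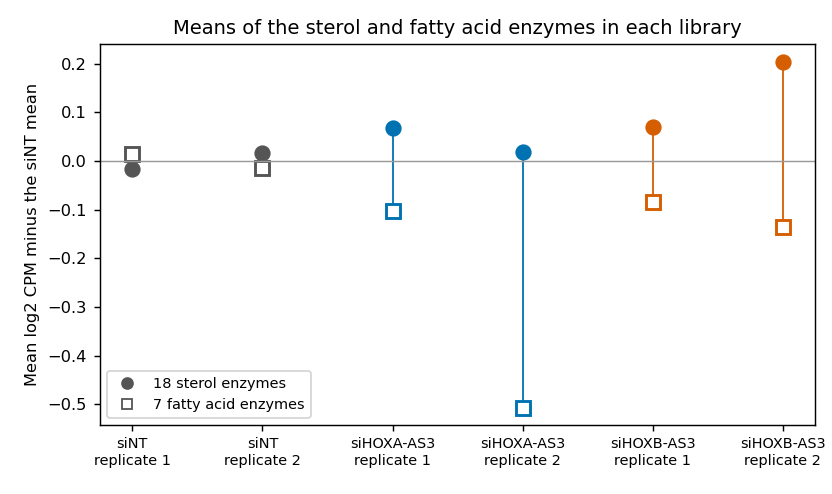
Mean log2 CPM relative to the siNT mean of the 18 sterol enzymes (filled circles) and the 7 fatty acid enzymes (open squares) in each library, joined by a line. The gap is widest in siHOXA-AS3 replicate 2, at 0.53, and the siNT libraries mirror each other around 0 because the values are centred on their mean.

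Genes next to the module were read from 5 lists, with counts over the genes tested, in the same edgeR fit. After HOXB-AS3 KD none of the 50 tested passed on all 6 libraries, and 12 passed in the fit on the 2 groups, near the background of 11.2% of all genes higher and 12.1% lower in that fit. Upwards and downwards, 2 and 2 of 7 isoprenoid branch genes and 1 and 1 of 4 SREBP processing genes were separated (30.9% of all genes tested each way). For sterol sensing, efflux and transport it was 5 and 2 of 10. INSIG2, picked after its values were seen, was the higher SREBP processing gene. It was at 11.8 and 8.67 TPM in siNT and 13.0 and 15.6 TPM in siHOXB-AS3. Its log2 fold change was 0.58 (edgeR adjusted p = 0.636), opposite in sign to that of INSIG1. In the list of fatty acid supply, elongation and activation, 9 of 15 genes were separated upwards, among them the acyl-CoA synthetases ACSL1 and ACSL3, and 3 downwards (30.9% of all genes tested in each direction), with a median log2 fold change of 0.23. ACSL5 and ACSL4, which also activate fatty acids to their CoA esters, were the 2 of the list with the lowest p and were among the 3. ACSL5 was at 176.5 and 166.5 TPM in siNT and 107.6 and 111.9 TPM in siHOXB-AS3 (log2 fold change -0.55, SE 0.14, edgeR adjusted p = 0.190). ACSL4 was at 14.2 and 10.6 TPM in siNT and 5.30 and 4.93 TPM in siHOXB-AS3 (log2 fold change -1.17, SE 0.32, edgeR adjusted p = 0.204). Between the knockdowns ACSL4 passed, lower in siHOXB-AS3 by a log2 fold change of -1.86 (edgeR adjusted p = 0.049), with siHOXA-AS3 at 13.7 and 26.8 TPM. Of the 14 genes of fatty acid oxidation, 10 had a negative log2 fold change, with a median of -0.12, and 8 were separated downwards (30.9% of all genes tested). PPARA, the transcription factor that drives this oxidation, was at 11.3 and 11.7 TPM in siNT and 7.72 and 7.04 TPM in siHOXB-AS3 (log2 fold change -0.54, SE 0.17, edgeR adjusted p = 0.270).

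The cholesterol transporter of the lysosome, NPC1, was at 34.0 and 32.3 TPM in siNT and at 46.9 and 49.4 TPM in siHOXB-AS3 (log2 fold change 0.63, SE 0.17, edgeR adjusted p = 0.196). PDSS1, which makes the isoprenoid tail of ubiquinone, was at 14.7 and 11.2 TPM in siNT and at 17.7 and 19.8 TPM in siHOXB-AS3 (log2 fold change 0.63, SE 0.21, edgeR adjusted p = 0.285). TMEM97, which binds NPC1, was at 55.9 and 58.2 TPM in siNT, 39.2 and 40.0 TPM in siHOXA-AS3 (log2 fold change -0.53, SE 0.16, edgeR adjusted p = 0.615) and 61.4 and 63.1 TPM in siHOXB-AS3. Both siHOXA-AS3 libraries of TMEM97 lay below the other 4, without overlap.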

How the data were processed

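RNA-seq libraries of HT-29 cells were grouped by the siRNA in their labels. The submitters' processing notes name RSEM and hg19, and the aligner, versions and strand setting were not given in any source used here. The authors deposited expected counts, TPM and FPKM per RefSeq gene for each library. A total of 627 rows that join several gene identifiers stayed in the totals. Here, these counts were rounded, and genes with low ones were removed by filterByExpr (minimum count 10). TMM factors were applied and all 6 libraries were tested in 1 model with edgeR 4.0.16 (glmQLFit, R 4.3.3), with Benjamini-Hochberg adjustment over 13034 genes. All 29 genes of interest passed the filter. Log2 CPM used a prior count of 2. Alternatives were DESeq2 1.42.0, RLE factors, library totals, no filter, a fit of the compared groups alone, a replicate block, a loess trend on GC content (span 0.3) removed per library, limma 3.58.1 on log2(FPKM + 0.1), and each library left out. A GC value was found for 96.8% of the genes tested. The code was tested on simulated data.

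Full statistics were given for genes with an unadjusted p under 0.05 in any comparison and for SREBF1, SREBF2 and INSIG1, and in each neighbouring list for at most 2 genes with the lowest p. The members and lists were chosen with earlier results of these data known. Promoters and symbols came from RefSeq (GRCh38.p14), and no coordinates were converted between builds. Same-numbered libraries did not deviate together (correlations of -0.35, -0.14 and 0.15). These correlations cannot decide whether a number pairs libraries. The replicate differences also followed GC content, in opposite directions in siNT (r = 0.42 over the genes tested) and siHOXA-AS3 (r = -0.75). Depth ranged from 15998518 to 26263938 expected counts, and FADS1, FADS2 and HOXA-AS3 were the genes most limited by it.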

Additional observations from a re-analysis of the deposited data

Results flagged for a closer look

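In 4 genes, both libraries of one knockdown lay below both siNT libraries and both libraries of the other lay above them. This pattern held for 9.05% of the genes tested. The differences between the knockdowns (HOXB-AS3 KD minus HOXA-AS3 KD, log2 fold change) were 0.77 for FDPS (edgeR adjusted p = 0.12), 0.32 for ACACA (edgeR adjusted p = 0.334), 0.52 for ACLY (edgeR adjusted p = 0.175) and 1.18 for FADS1 (edgeR adjusted p = 0.205). None passed edgeR's test of the difference on all 6 libraries. With the GC trend removed, the edgeR adjusted p was 0.000906 for FDPS, 0.00781 for ACLY, 0.0541 for ACACA and 0.0829 for FADS1. That fit called 14% of all genes tested higher and 11.9% lower. The 4 genes were picked by a difference between the knockdowns in these same libraries, so these p-values are not separate support. FADS1 had 8 to 25 expected counts per library.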

How the results depend on the processing

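The counts of genes called moved most with the libraries in the fit. For HOXA-AS3 KD, HOXB-AS3 KD and the 2 against each other, the counts over all genes were 0, 8 and 204 on all 6 libraries, 51, 347 and 792 with DESeq2, 24, 265 and 706 without a filter, and 506, 1791 and 3369 with the GC trend removed. Limma on FPKM gave 1 and 93 for HOXA-AS3 KD and for the knockdowns against each other. Only the groups compared gave 2995 for HOXB-AS3 KD and 2 between the knockdowns. Leaving out each library gave 0 to 4031, 0 to 3035 and 0 to 5027, with the remaining library of its condition assumed to vary like the others. The genes of the module called moved from 0 to 1 (DESeq2), 10 (only the groups compared), 9 (GC trend removed) and 6 (replicate block with GC trend removed) for HOXB-AS3 KD, with 0 to 10 over libraries left out. For HOXA-AS3 KD it was 0 to 14 over libraries left out, and between the knockdowns 3 (DESeq2), 1 (no filter), 7 (GC trend removed), 4 (replicate block with GC trend removed) and 0 to 14. Other pathway genes called after HOXB-AS3 KD went from 0 to 1 (DESeq2, no filter), 12 (only the groups compared), 8 (GC trend removed, also with the replicate block) and 0 to 12.

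Same-numbered libraries did not deviate together, and the replicate block gave 0, 0 and 10 genes called, and 274, 1248 and 2783 with the GC trend removed as well. A block with the siNT numbers crossed, chosen after seeing the data, gave 14, 225 and 758.

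Of 495 values of single genes under the alternatives, 416 kept their direction and side of the threshold, 65 passed it newly and 14 changed sign. All of the 14 but 1 came from leaving out a library. Over the libraries left out, the log2 fold change after HOXA-AS3 KD ran from -0.033 to 0.60 for CYP51A1, -0.048 to 0.57 for HSD17B7, -0.30 to 0.92 for SC5D, -0.46 to 0.44 for SREBF1 and -0.32 to 0.39 for SREBF2. Between the knockdowns it ran from -0.0099 to 0.62 for CYP51A1, -0.46 to 0.018 for MSMO1, -0.17 to 0.74 for SREBF1, -0.29 to 0.43 for SREBF2 and -1.50 to 0.33 for FADS2. SREBF2 between the knockdowns also changed sign with library totals (-0.0053). The lowest or the highest value in each case came without a siHOXA-AS3 library. The sterol minus fatty acid contrast of HOXA-AS3 KD was 0.17 as a median over genes and 0.17 to 0.53 over libraries left out. That of HOXB-AS3 KD was 0.024 without FADS2 and 0.36 without FADS1. The shorter motif TCACNCC was found in 7 promoters in place of 1. The cause of these changes was not tested. With 2 libraries per condition, 1 library can decide a call.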
